A study of Mus musculus with 4 samples.

Results

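The genes described here encode the subunits of the oxidative phosphorylation system of mouse mitochondria, read in dendritic cells (DC) of the spleen after exposure of the animals to TCDD. They were chosen by name: every probe set annotated to 1 gene symbol that starts with Nduf, Sdha, Sdhb, Sdhc, Sdhd, Uqcr, Cox4, Cox5, Cox6, Cox7, Cox8 or Atp5 was taken, and each gene was represented by its probe set with the highest mean over the 4 arrays. This gave 87 genes of 12393 on the arrays, measured by 160 probe sets of 22626. By complex they were 34 genes of complex I, 4 of complex II, 8 of complex III, 16 of complex IV and 17 of complex V. The prefixes also brought in 8 assembly factors (Ndufaf and Sdhaf genes), which are no subunits and are given apart.

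The respiratory chain of the inner mitochondrial membrane passes electrons from NADH (complex I) or succinate (complex II) through ubiquinone to complex III, on to cytochrome c and, in complex IV, to oxygen. Complexes I, III and IV move protons out of the matrix, and the ATP synthase (complex V) uses their return to make ATP. Complex II is also an enzyme of the citric acid cycle, and in DC the balance between glycolysis and respiration is known to shift with activation.

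TCDD is a dioxin that activates the aryl hydrocarbon receptor (AhR), a transcription factor. Female C57BL/6 mice, 8 to 12 weeks old and 3 per group, received either 10 µg/kg TCDD in corn oil or the DMSO solvent in corn oil by intraperitoneal injection. DC were isolated after 24 h from pooled spleens by lysis of red cells, a BSA density gradient and magnetic sorting to a purity above 90%. Their RNA was amplified and hybridised to 4 Affymetrix arrays, 2 labelled as biological replicates per group; no label says if the replicates came from separate mice, so p-values measure the spread between these samples. The labels name no genetic change in either group, and in such bulk samples fewer cells of a type cannot be told apart from less RNA per cell. Values were deposited on the log2 scale after RMA, rounded to steps of 0.1, so a difference of 1 is 2-fold. The deposited arrays do not share a distribution: the 90th percentile of the probe sets was 8.6 and 8.7 in DMSO against 8.4 and 8.2 in TCDD, with medians of 5.9 to 6.0, so results are also given after further scaling.

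Markers of DC were present: 12 of 13 measured DC genes had a mean at or over log2 5.525, the 40th percentile on these arrays, and Xcr1 was under it (dim). All 13 were lower in TCDD as deposited (11 after quantile normalization and 10 after cyclic loess), with a median difference of -0.55 (TCDD minus DMSO; -0.24 and -0.29 under these scalings) and median levels of 9.6 and 9.4 in DMSO against 8.8 and 9.2 in TCDD; 5 were lower without overlap of the groups. The DC genes had a median level of 9.15, and of all genes at 9 to 10, 41.7% were lower without overlap (median difference -0.35). Of the other cell types, the 11 macrophage and monocyte genes differed by a median of -0.80 (-0.40 under quantile normalization and -0.49 under cyclic loess). The 5 B cell genes differed by -0.40, the 6 T and NK cell genes by 0.00, the 4 erythroid genes by 0.15 and the 9 neutrophil genes by 0.35. Median levels of these lists were 8.75, 6.65, 5.475, 5.625 and 6.575, in this order. Over all genes the median difference was -0.35 at 8 to 9, and 0.05 for dim genes and from there to 7. The neutrophil gene S100a8 stood at 10.3 in TCDD replicate 1 against 5.6 to 6.4 elsewhere. Ahrr, the AhR repressor and a direct target of the receptor, lay at 5.5 and 5.2 in DMSO against 7.2 and 7.8 in TCDD; the median of the 5 AhR response genes was 0.25. TCDD replicate 1 stood apart in the control probe sets, where the 3′ minus middle signal of Gapdh was 3.6 against 1.5 to 2.1 and that of beta-actin 4.0 against 1.9 to 2.1 in the other arrays. The part of these markers, and of RNA quality, in the values below was not tested.

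No oxidative phosphorylation gene passed the test. The 79 subunit genes had a median difference of -0.10, but the 2 TCDD arrays lay on opposite sides of the DMSO mean. Their medians were 0.25 in replicate 1 and -0.35 in replicate 2. Genes whose groups did not overlap under any scaling tried included Sdhb (-0.70), Ndufa10 (-0.60) and Ndufs1 (-0.50) on the lower side. On the higher side they included Ndufs5, Uqcr10, Cox8b (0.75 each) and Cox6a2 (0.65). How many of all genes stayed apart in this way was not counted. The most negative differences, in Atp5b (-1.40), Ndufa8 (-0.85) and Ndufs3 (-0.80), came with overlap after quantile normalization and cyclic loess. In 41 genes (47.1%, against 23.7% of all genes) TCDD replicate 1 stood above and replicate 2 below the DMSO mean. Limma with Benjamini-Hochberg adjustment called 0 of the 87 genes and 0 of 22626 probe sets (0.0%); the lowest adjusted p was 0.349, and the test without moderation called 0 as well. At an unadjusted p under 0.05 limma held 10 of 87 (11.5%), 7 lower and 3 higher in TCDD, against 14.5% of all genes.

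The median difference over the 87 genes was -0.10 as deposited, against 0.00 over all genes, but it was 0.16 after quantile normalization and 0.14 after cyclic loess, so its sign turned with the scaling. There were 50 genes below 0, 4 at 0 and 33 above. Both TCDD arrays lay under both DMSO arrays in 19 genes (21.8%), against 19.4% of all genes. The opposite order was seen in 10 genes (11.5%), against 20.0% of all genes. A single gene, Atp5b, was lower by 2-fold or more without overlap (1.15%), against 2.42% of all genes.

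The TCDD arrays differed from each other more than the DMSO arrays did. In TCDD replicate 1 the median of the 87 genes was 0.20 above the DMSO mean and 57 genes were above it; in TCDD replicate 2 the median was -0.35 and 69 genes were below. The median gap was 0.50 between the TCDD arrays and 0.20 between the DMSO arrays, and it was larger in TCDD for 61 genes and larger in DMSO for 18. Over all genes the gaps were 0.30 and 0.20. Gaps of 1.5 or more between the TCDD arrays occurred in 10 genes, and in 9 of them replicate 1 was the higher array. An example is Ndufa5, an accessory subunit of complex I, at 7.2 and 7.8 in DMSO against 9.2 and 6.8 in TCDD, although its second probe set read 6.3 and 6.6 in DMSO against 6.2 and 6.1 in TCDD. Ndufa12, another accessory subunit, lay at 9.4 and 9.6 in DMSO against 10.8 and 8.8 in TCDD, and its next brightest probe set 9.1 and 9.2 in DMSO against 10.7 and 8.7 in TCDD.

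**Figure D1:**
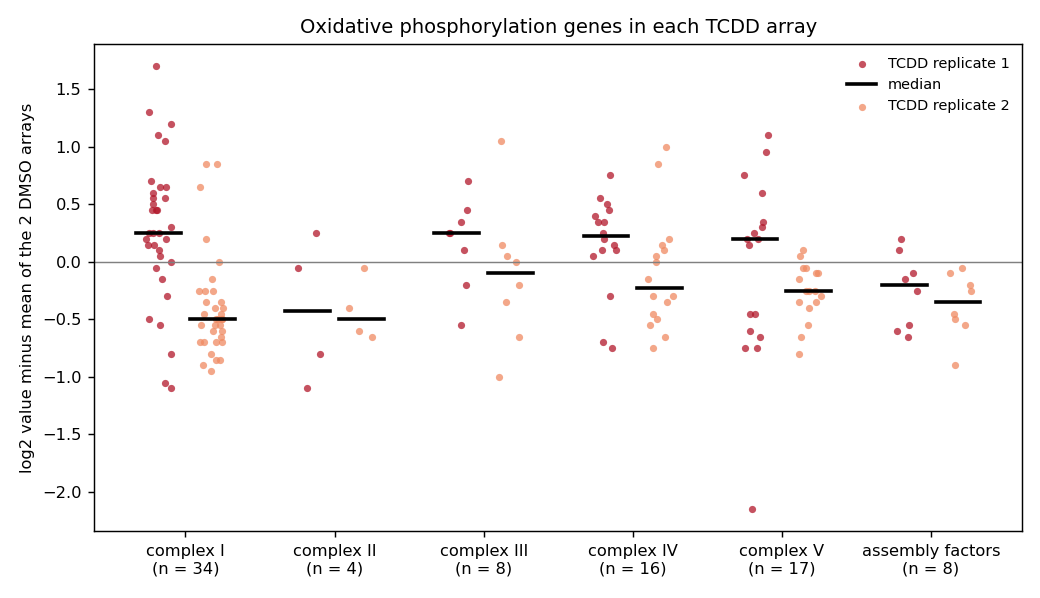
Each point is 1 gene, drawn separately for TCDD replicate 1 (dark) and replicate 2 (light) as its log2 value minus the mean of the 2 DMSO arrays, by complex; bars are medians. In complex I the medians are 0.25 and -0.50 and in complex V 0.20 and -0.25, whereas in complex II both lie below 0, at -0.425 and -0.50.

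Promoter sequences of 5 subunit genes are printed. These genes had the largest differences without overlap in complexes II, III and V and the largest difference on the higher side in complex I. They are examples: Ndufa8 (-0.85), Ndufs3 (-0.80) and Cox8b (0.75) also differed by 0.7 or more without overlap and are not printed. Each is the 250 bases before the transcription start, from RefSeq on GRCm38.p6, read 5′ to 3′ on the gene's strand: Sdhb at chr4:140961021-140961270 (plus strand), Sdhd at chr9:50603850-50604099 (minus), Ndufs5 at chr4:123718187-123718436 (minus), Atp5b at chr10:128083057-128083306 (plus) and Uqcr10 at chr11:4704345-4704594 (minus). Capitals mark matches on either strand to GCGTG (core of the AhR response element, CACGC on the other strand), TGCGCA (core of the site of NRF1, a regulator of respiratory genes), CCGGAAG (core of the site of ETS factors such as GABPA) and TGACCTTG (core of the site of the oestrogen-related receptors).
Sdhb: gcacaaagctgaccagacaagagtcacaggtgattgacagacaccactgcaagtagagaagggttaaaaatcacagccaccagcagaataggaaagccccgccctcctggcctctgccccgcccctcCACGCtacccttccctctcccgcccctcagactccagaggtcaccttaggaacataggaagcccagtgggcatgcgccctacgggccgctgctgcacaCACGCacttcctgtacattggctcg
Sdhd: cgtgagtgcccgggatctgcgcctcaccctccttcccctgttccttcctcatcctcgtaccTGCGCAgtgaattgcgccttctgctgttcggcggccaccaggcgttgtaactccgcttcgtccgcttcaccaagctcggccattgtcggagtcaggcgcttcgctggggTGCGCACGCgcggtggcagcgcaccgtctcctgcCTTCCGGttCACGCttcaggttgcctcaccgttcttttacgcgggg
Ndufs5: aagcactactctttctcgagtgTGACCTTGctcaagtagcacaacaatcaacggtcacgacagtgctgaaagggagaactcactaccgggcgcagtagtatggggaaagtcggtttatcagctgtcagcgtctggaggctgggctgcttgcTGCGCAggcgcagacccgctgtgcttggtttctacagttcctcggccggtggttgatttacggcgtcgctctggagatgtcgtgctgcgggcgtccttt
Atp5b: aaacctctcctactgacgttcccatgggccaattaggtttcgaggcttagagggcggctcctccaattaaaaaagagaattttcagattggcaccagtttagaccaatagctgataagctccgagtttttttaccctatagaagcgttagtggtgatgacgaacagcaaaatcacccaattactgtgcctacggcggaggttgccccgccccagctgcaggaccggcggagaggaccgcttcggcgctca
Uqcr10: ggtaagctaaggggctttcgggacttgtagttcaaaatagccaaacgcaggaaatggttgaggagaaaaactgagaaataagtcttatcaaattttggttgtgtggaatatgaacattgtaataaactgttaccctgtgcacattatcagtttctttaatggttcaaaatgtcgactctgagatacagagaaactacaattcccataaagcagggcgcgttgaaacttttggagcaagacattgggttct

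Sdhb, lower in TCDD, held 2 matches to GCGTG, and Sdhd, also lower, held 2 matches to GCGTG, 2 to TGCGCA and 1 to CCGGAAG; in Sdhd a TGCGCA and a GCGTG match overlap in the run TGCGCACGC. Ndufs5, higher in TCDD, held 1 TGCGCA and 1 TGACCTTG. Neither Atp5b, the gene with the largest difference, nor Uqcr10 held any of the motifs in this window. Of the genes not printed, Ndufa8 and Cox8b held none of the motifs and Ndufs3 held 1 CCGGAAG only. By gene ID 73 of the 87 genes had a promoter in the table, 5 of them with more than 1 start.

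The GCGTG letters were in 31 of these 73 genes (42.5%) against 28.2% of all 32851 promoters. They were in 8 of 17 genes lower in TCDD without overlap, in 3 of 8 higher and in 20 of 48 that overlapped. TGCGCA was in 14 genes (19.2%) against 6.43% of all promoters, and in 1 of 17 lower, 1 of 8 higher and 12 of 48 overlapping genes. CCGGAAG was also in 14 genes (19.2%) against 6.91%, with 4 of 17, 0 of 8 and 10 of 48. TGACCTTG was in 3 genes (4.11%), Atp5g3, Atp5l and Ndufs5, against 1.33%. The members' promoters had a median GC content of 57.4% against 52.4% over all promoters, and its part in these shares was not tested. A match is a description of the letters and says nothing of binding.

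Complex I, the NADH dehydrogenase, was measured by 34 genes, of which 6 are core subunits, those also found in the bacterial enzyme, and 28 accessory. As deposited all 6 core genes were below 0 with a median of -0.15, which turned to 0.15 under quantile normalization and 0.12 under cyclic loess. The accessory genes had a median of 0.00, with 3 lower and 4 higher without overlap. Median levels were 8.325 for the core and 8.6 for the accessory genes. Of all genes at a mean level of 8 to 9, 38.2% were lower and 4.54% higher without overlap. Over the whole complex the median was -0.10 as deposited, 0.19 under quantile normalization and 0.15 under cyclic loess.

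Among the core genes 2 did not overlap. Ndufs1, the largest subunit with iron-sulphur clusters, lay at 7.9 and 8.1 in DMSO against 7.5 in both TCDD arrays (difference -0.50, SE 0.102, n = 2 per group). Ndufs3, a core subunit of the arm in the matrix, lay at 8.3 and 7.9 in DMSO against 7.0 and 7.6 in TCDD (-0.80, SE 0.300). Both TCDD values of each gene were under both DMSO values, and each gene had a single probe set; Ndufs1 kept this order under all 4 scalings, whereas Ndufs3 overlapped after quantile normalization and cyclic loess.

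The other core genes overlapped. Ndufv1, which binds the flavin that takes electrons from NADH, stood at 8.9 and 8.4 in DMSO against 8.5 and 8.4 in TCDD. Ndufv2, its iron-sulphur partner, stood at 8.9 and 9.4 in DMSO against 9.8 and 8.3 in TCDD. For Ndufv2 the TCDD arrays enclosed the DMSO arrays, with the higher value in replicate 1. Ndufs7, which holds the cluster nearest ubiquinone, had 8.1 and 8.2 in DMSO against 8.4 and 7.7 in TCDD. Ndufs8, an iron-sulphur subunit beside it, had 10.2 and 10.1 in DMSO against 10.3 and 9.8 in TCDD. The same order, replicate 1 highest and replicate 2 lowest, thus held for Ndufv2, Ndufs7 and Ndufs8. The 5 other probe sets of Ndufs8 differed by 0.05, -0.20, -0.55, -0.65 and -0.95, so the brightest one was near the top of the range.

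Of the accessory genes, Ndufa8, a subunit on the side of the intermembrane space, lay at 8.9 and 8.2 in DMSO against 7.5 and 7.9 in TCDD (-0.85, SE 0.333). Ndufa10, which has the fold of a nucleoside kinase, lay at 7.5 in both DMSO arrays against 6.7 and 7.1 in TCDD (-0.60, SE 0.174). Ndufa4, now often counted to complex IV, lay at 8.3 and 8.1 in DMSO against 7.9 and 7.5 in TCDD (-0.50, SE 0.192). These were the 3 accessory genes lower without overlap; under quantile normalization Ndufa8 and Ndufa4 overlapped and Ndufa10 did not.

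On the higher side, Ndufs5, a small subunit facing the intermembrane space whose promoter is printed above, lay at 7.2 and 7.3 in DMSO against 7.9 and 8.1 in TCDD (0.75, SE 0.110, limma adjusted p = 0.349). Ndufa3, a small membrane subunit, lay at 10.0 and 9.9 in DMSO against 10.4 and 10.6 in TCDD (0.55, SE 0.110). Its second probe set read 9.8 and 9.7 in DMSO against 10.3 and 10.4 in TCDD, and Ndufa3 was the only member with a second, not dim probe set next in brightness that was also higher without overlap. Ndufb2, a subunit of the membrane arm, lay at 7.5 and 7.2 in DMSO against 7.6 and 8.2 in TCDD (0.55, SE 0.280), but its other probe set differed by -0.15. Ndufa7, a subunit of the matrix arm, lay at 7.7 and 7.5 in DMSO against 7.8 in both TCDD arrays (0.20, SE 0.102). For Ndufa7 the nearest arrays of the groups were 1 rounding step apart. Ndufa1, a small membrane subunit and the brightest gene of the complex, overlapped, with 11.2 and 11.0 in DMSO against 11.2 and 10.7 in TCDD.

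**Figure D2:**
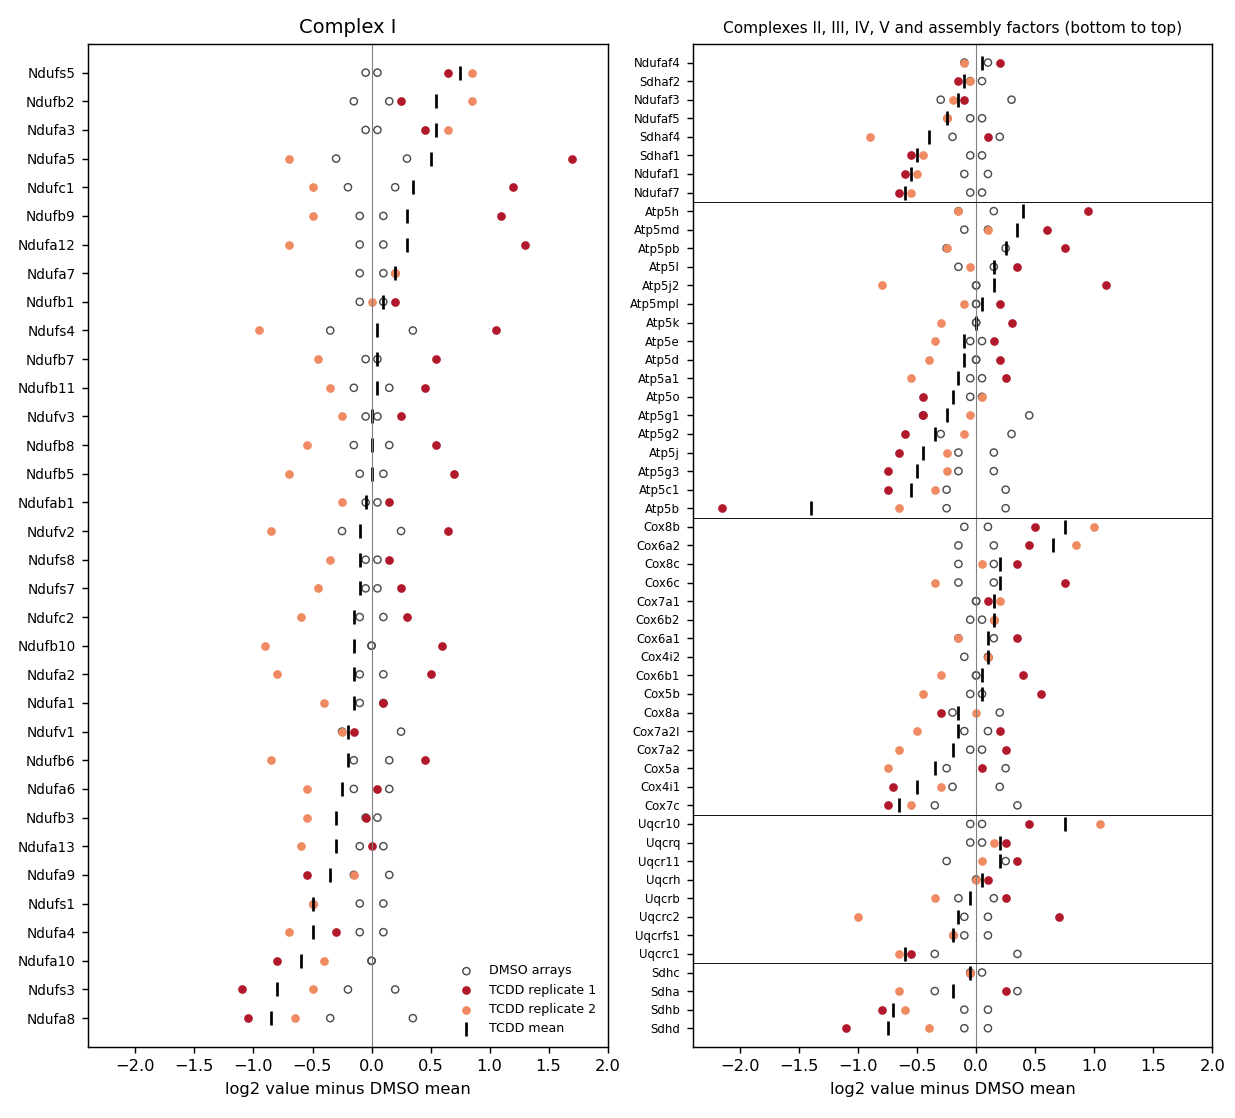
Every gene is a row, with the 2 DMSO arrays (open circles), the 2 TCDD arrays (filled) and the TCDD mean (bar) on the log2 scale relative to the gene's DMSO mean; complex I is on the left and the other genes on the right. Many rows, such as Ndufa5, have TCDD replicate 1 on the right and replicate 2 on the left of DMSO, while Atp5b has replicate 1 at -2.15.

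Complex II, succinate dehydrogenase, had the lowest median of the 5 complexes as deposited and under the 3 other scalings. Its 4 genes had a median of -0.45, with -0.10 under quantile normalization and -0.15 under cyclic loess, and all 4 were below 0 as deposited. The medians of the TCDD arrays were -0.425 and -0.50, so here they lay on the same side. All genes at a level of 8 to 9 did so too, with medians of -0.20 and -0.50. An electron carrier and a membrane anchor did not overlap between the groups. The median level of the complex was 8.14, and of all genes at 8 to 9, 38.2% were lower without overlap.

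Sdhb, the iron-sulphur subunit, lay at 9.0 and 8.8 in DMSO against 8.1 and 8.3 in TCDD (-0.70, SE 0.131, limma adjusted p = 0.349). Sdhd, an anchor that helps bind ubiquinone, lay at 8.1 and 7.9 in DMSO against 6.9 and 7.6 in TCDD (-0.75, SE 0.302). Sdhb was lower without overlap under all 4 scalings; Sdhd overlapped under quantile normalization, and its dimmer probe set read 6.8 and 6.9 in DMSO against 7.0 and 6.9 in TCDD. Sdha, the flavin subunit that oxidises succinate, stood at 9.2 and 9.9 in DMSO against 9.8 and 8.9 in TCDD (-0.20, SE 0.467). Sdhc, the other anchor, stood at 7.7 and 7.8 in DMSO against 7.7 in both TCDD arrays (-0.05, SE 0.0744), while its second probe set was lower without overlap (-0.50). Sdha and the main probe set of Sdhc therefore did not separate the groups.

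Complex III, the cytochrome c reductase, had its large and small subunits on opposite sides of 0 as deposited. The 3 large subunits had a median of -0.20, which turned to 0.16 under quantile normalization and 0.07 under cyclic loess, and the 5 small ones a median of 0.20, which stayed above 0 under these scalings (0.39 and 0.32). Over all 8 genes the median was 0.00 as deposited and 0.18 under each of these scalings. As deposited 2 genes were lower and 2 higher without overlap. The median level was 8.31, and of all genes at 8 to 9, 38.2% were lower and 4.54% higher.

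Uqcrc1, a core protein of the matrix side, lay at 8.6 and 7.9 in DMSO against 7.7 and 7.6 in TCDD (-0.60, SE 0.294). Uqcrfs1, the Rieske iron-sulphur protein that passes electrons towards cytochrome c, lay at 8.3 and 8.5 in DMSO against 8.2 in both TCDD arrays (-0.20, SE 0.102). Both were lower without overlap as deposited, but Uqcrc1 overlapped after quantile normalization (-0.34) and cyclic loess (-0.37), and the sign of Uqcrfs1 turned under quantile normalization and cyclic loess. Uqcrc2, the other core protein, read 10.1 and 10.3 in DMSO against 10.9 and 9.2 in TCDD on its brightest probe set. Its second probe set read 9.3 and 9.6 in DMSO against 8.0 and 8.4 in TCDD (-1.25, SE 0.212). The probe sets of Uqcrc2 thus disagreed: the second was lower without overlap and the brightest was not.

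Uqcr10, a small subunit close to the Rieske protein, lay at 8.2 and 8.1 in DMSO against 8.6 and 9.2 in TCDD (0.75, SE 0.255). Uqcrq, a small subunit bound to cytochrome b, lay at 5.9 and 6.0 in DMSO against 6.2 and 6.1 in TCDD (0.20, SE 0.0848). Both were higher without overlap under all 4 scalings, Uqcrq by 1 rounding step between the nearest arrays. Uqcrb, which helps form the ubiquinone site and was the brightest gene of the complex, overlapped, with 12.7 and 13.0 in DMSO against 13.1 and 12.5 in TCDD.

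Complex IV, cytochrome c oxidase, has subunits with general forms and forms typical of muscle, lung or testis, and as deposited their medians lay on opposite sides of 0. The 9 general forms had a median of -0.15, which turned to 0.25 under quantile normalization and 0.16 under cyclic loess, with 2 lower without overlap. Their median level was 10.55, and of all genes at 10 to 11, 38.6% were lower and 1.24% higher without overlap. The 6 tissue forms were all above 0 as deposited, with a median of 0.175 that kept its sign under the other scalings (0.31, 0.12 and 0.28), and 4 were higher without overlap, 2 of them by 1 rounding step. Most of these probe sets had low signal, where the median of all genes was 0.05 and where 27.5% (dim) and 26.0% (from there to 7) of all genes were higher without overlap. Over the 16 genes the median was 0.075.

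Cox4i1, the general form of subunit 4, lay at 11.6 and 11.2 in DMSO against 10.7 and 11.1 in TCDD (-0.50, SE 0.238); it overlapped under quantile normalization. Cox4i2, the lung form, stood at 5.9 and 6.1 in DMSO against 6.1 in both TCDD arrays. Cox7c, a small subunit, lay at 5.4 and 6.1 in DMSO against 5.0 and 5.2 in TCDD (-0.65, SE 0.302), but both its probe sets were dim. Cox4i1 and Cox7c were thus the general forms without overlap, both on the low side.

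Cox6a2, the muscle form of subunit 6a, lay at 6.6 and 6.3 in DMSO against 6.9 and 7.3 in TCDD (0.65, SE 0.212). Cox8b, the muscle form of subunit 8, lay at 6.2 and 6.0 in DMSO against 6.6 and 7.1 in TCDD (0.75, SE 0.227). Both were higher without overlap under all 4 scalings, with 1 probe set each. Their general counterparts overlapped: Cox6a1 stood at 11.3 and 11.0 in DMSO against 11.5 and 11.0 in TCDD. Cox8a stood at 9.4 and 9.0 in DMSO against 8.9 and 9.2 in TCDD.

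Cox6b2, a testis form, lay at 5.5 and 5.6 in DMSO against 5.7 in both TCDD arrays. Cox7a1, a muscle form, was dim, with 4.4 in both DMSO arrays against 4.5 and 4.6 in TCDD. For both genes the lack of overlap rested on 1 rounding step and was lost under quantile normalization and median centring. Cox8c, a testis form, stood at 7.8 and 8.1 in DMSO against 8.3 and 8.0 in TCDD and overlapped. The general Cox6b1 stood at 11.0 in both DMSO arrays against 11.4 and 10.7 in TCDD. Cox7a2 stood at 10.4 and 10.5 in DMSO against 10.7 and 9.8 in TCDD. Cox7a2l, classed here as a supercomplex factor and the brightest gene of the complex, stood at 11.9 and 11.7 in DMSO against 12.0 and 11.3 in TCDD. In Cox6b1, Cox7a2 and Cox7a2l the TCDD arrays enclosed the DMSO arrays, again with replicate 1 on the high side.

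Complex V, the ATP synthase, had 4 genes lower and 0 higher without overlap of 17. Its median level was 9.28, and of all genes at a mean level of 9 to 10, 41.7% were lower and 2.51% higher without overlap. Its median was -0.10 as deposited, and it turned to 0.12 under quantile normalization and 0.14 under cyclic loess. The 5 subunits of the F1 head were all below 0 as deposited (median -0.15, but 0.09 and 0.05 under these scalings). The 3 genes for subunit c, the rotating ring in the membrane, had a median of -0.35 and stayed below 0 (-0.12 and -0.19). The 5 other membrane subunits had a median of 0.15 and the 4 of the peripheral stalk a median of 0.025, or -0.025 under median centring.

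Atp5b, the catalytic beta subunit, lay at 9.8 and 9.3 in DMSO against 7.4 and 8.9 in TCDD (-1.40, SE 0.645, limma adjusted p = 0.444), or 0.379 times the DMSO level. TCDD replicate 1 was at -2.15 and replicate 2 at -0.65 from the DMSO mean, so the arrays of the TCDD group were far apart. Under quantile normalization the difference was -1.02 with overlap, and the gene has 1 probe set. Atp5c1, the gamma subunit of the central stalk, lay at 10.9 and 11.4 in DMSO against 10.4 and 10.8 in TCDD (-0.55, SE 0.267). Its second probe set differed by -0.65.

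Atp5a1, the alpha subunit beside Atp5b in the head, read 11.1 and 11.2 in DMSO against 11.4 and 10.6 in TCDD. Its second probe set read 10.4 and 10.2 in DMSO against 8.9 and 9.8 in TCDD (-0.95, SE 0.380). As for Uqcrc2, the less bright probe set was lower without overlap and the brightest was not. Atp5d, the delta subunit, stood at 10.4 in both DMSO arrays against 10.6 and 10.0 in TCDD, with a second probe set at -0.45. Atp5e, the epsilon subunit, stood at 7.5 and 7.4 in DMSO against 7.6 and 7.1 in TCDD. Atp5d and Atp5e overlapped.

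The 3 genes for subunit c make the same mature protein. Atp5g3 lay at 11.3 and 11.0 in DMSO against 10.4 and 10.9 in TCDD (-0.50, SE 0.245). Atp5g2 stood at 8.2 and 7.6 in DMSO against 7.3 and 7.8 in TCDD (-0.35, SE 0.323). Atp5g1 stood at 7.4 and 6.5 in DMSO against 6.5 and 6.9 in TCDD (-0.25, SE 0.405). Of these only Atp5g3 separated the groups, and not under quantile normalization. Atp5j, a subunit of the peripheral stalk, lay at 9.8 and 10.1 in DMSO against 9.3 and 9.7 in TCDD (-0.45, SE 0.212), also with overlap under quantile normalization. Atp5h, a stalk subunit and the brightest gene of the complex, overlapped, with 10.8 and 11.1 in DMSO against 11.9 and 10.8 in TCDD.

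The 8 assembly factors had closer TCDD arrays than any of the 5 complexes, with a median gap of 0.10, and a median difference of -0.325 that kept its sign under the other scalings (-0.24, -0.38 and -0.27). Lower without overlap were 4 of 8, each also at an unadjusted limma p under 0.05 and each under all 4 scalings. Of all genes, 19.4% were lower without overlap and 14.5% had such a p. The median level of the 8 was 6.375, against 8.1375 to 9.7375 in the complexes. From the dim threshold to 7, 13.9% of all genes were lower without overlap. Ndufaf7, a methyltransferase needed to assemble complex I, lay at 6.5 and 6.4 in DMSO against 5.8 and 5.9 in TCDD (-0.60, SE 0.0848). Ndufaf1, needed for intermediates of the membrane arm, lay at 6.1 and 5.9 in DMSO against 5.4 and 5.5 in TCDD (-0.55, SE 0.110). Sdhaf1, which helps give Sdhb its iron-sulphur clusters, lay at 6.9 and 6.8 in DMSO against 6.3 and 6.4 in TCDD (-0.50, SE 0.0848). None passed the adjustment (limma adjusted p = 0.349 for each). The fourth, Ndufaf5, was dim (5.5, 5.6, 5.3 and 5.3). Ndufaf4, the brightest, overlapped, with 8.0 and 8.2 in DMSO against 8.3 and 8.0 in TCDD.

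The scaling changed how many genes separated, among the members and over all genes. Without overlap in TCDD there were 19 lower and 10 higher genes as deposited, 20 and 6 after median centring (each array set to the same median), 8 and 21 after quantile normalization (each array given the same distribution), and 10 and 22 after cyclic loess (a smooth curve of signal level removed between arrays). Of all genes 25.2% were lower and 14.2% higher after median centring, 15.0% and 23.9% after quantile normalization, and 21.2% and 24.2% after cyclic loess. Over all probe sets the median difference stayed within 0.05 of 0 under these settings. Under all 4 scalings 8 genes were lower without overlap: Ndufa10, Ndufs1, Sdhb, Cox7c, Ndufaf1, Ndufaf5, Ndufaf7 and Sdhaf1. Higher under all 4 were Ndufa3, Ndufs5, Uqcr10, Uqcrq, Cox6a2 and Cox8b. The share of all genes that separated under all 4 was not computed, so these counts have no background beside them. The scalings also reuse the same 4 arrays.

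**Figure D3:**
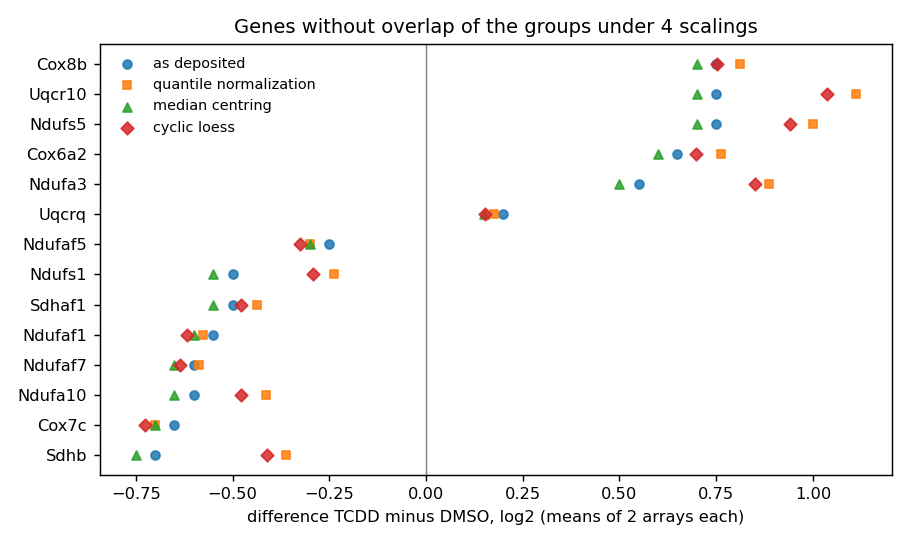
The 14 genes without overlap under all 4 scalings are rows, and the symbols give the difference TCDD minus DMSO on the log2 scale as deposited and after quantile normalization, median centring and cyclic loess. Sdhb moves from -0.70 as deposited to -0.36 after quantile normalization, and Uqcr10 from 0.75 to 1.11.

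Differences also went with the level of signal, for all genes. Genes with a mean of 8 to 9 had a median of -0.35, as had those at 9 to 10, whereas genes between the dim threshold and 7 had a median of 0.05. At 8 to 9 the 18 oxidative phosphorylation genes had a median of -0.125, and at 9 to 10 the 13 had 0.00. Within their own band of level 61 of the 87 lay above the median of all genes, 23 below and 3 at it. In TCDD replicate 1 the members at 9 to 10 had a median of 0.45 and all genes -0.20; in replicate 2 both stood at -0.55. As deposited, the members were thus mostly above the median of genes of like signal. The type of probe set, given below, was not matched in this comparison.

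**Figure D4:**
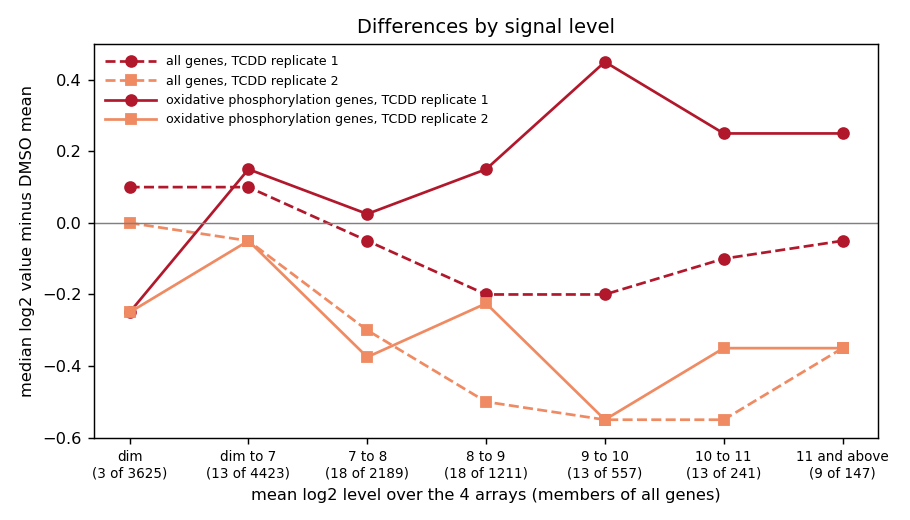
Median log2 value minus the DMSO mean in bands of mean level, for all genes (dashed) and the oxidative phosphorylation genes (solid), with TCDD replicate 1 dark and replicate 2 light. In replicate 1 the solid line reaches 0.45 at a level of 9 to 10 where the dashed line is at -0.20.

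Which probe set stands for a gene changed the values. Of the 87 genes 46 had more than 1 probe set, and in 41 another was not dim. The difference TCDD minus DMSO was lower on the next brightest than on the brightest probe set in 28, higher in 12 and equal in 1. The medians were -0.05 on the brightest and -0.15 on the next. In TCDD replicate 1 they were 0.30 and 0.00, in replicate 2 -0.40 and -0.30. Lower without overlap were 2 genes on the brightest and 10 on the next, with 1 in common, and higher were 4 and 1, with 1 in common. Over the 2575 genes with such a pair of probe sets, 27.8% were lower without overlap on the brightest and 25.2% on the next. Higher without overlap were 10.3% on the brightest and 13.7% on the next. The difference was lower on the next in 44.7% and higher in 50.5%. By type of probe set at a mean of 8 or above, those with the plain suffix _at had a median of -0.45 over all 1525, and those marked _a, _s or _x a median of -0.25 over 1600. In TCDD replicates 1 and 2 the plain ones stood at -0.35 and -0.50 and the marked ones at 0.00 and -0.45. The 29 plain probe sets of the members at this level stood at -0.15 and -0.25, and their 57 marked ones at 0.30 and -0.40. Among named genes not yet given with their other probe sets, Ndufv1 had differences of -0.35 and -0.55, Ndufs7 of -0.20, Ndufv2 of 0.25 and -0.60, Sdha of -0.10, Uqcrb of -0.30 and Cox7a2l of -0.15 and -0.65. The other probe sets of Uqcrq stood at -0.15, -0.20 and 0.20, so its small difference was not shared by all of them. Those of Uqcr10 (0.10 and 0.15) and Ndufa10 (-0.05) were dim. Cox6a1, Cox6b1, Cox7a2 and Atp5h had a second probe set between -0.20 and -0.05.

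Affymetrix marks by _s and _x probe sets that can bind transcripts of other genes, and many subunit genes have processed pseudogenes, so such probe sets may not read 1 gene alone. Positions of the probes along the transcripts were not used here.

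**Figure D5:**
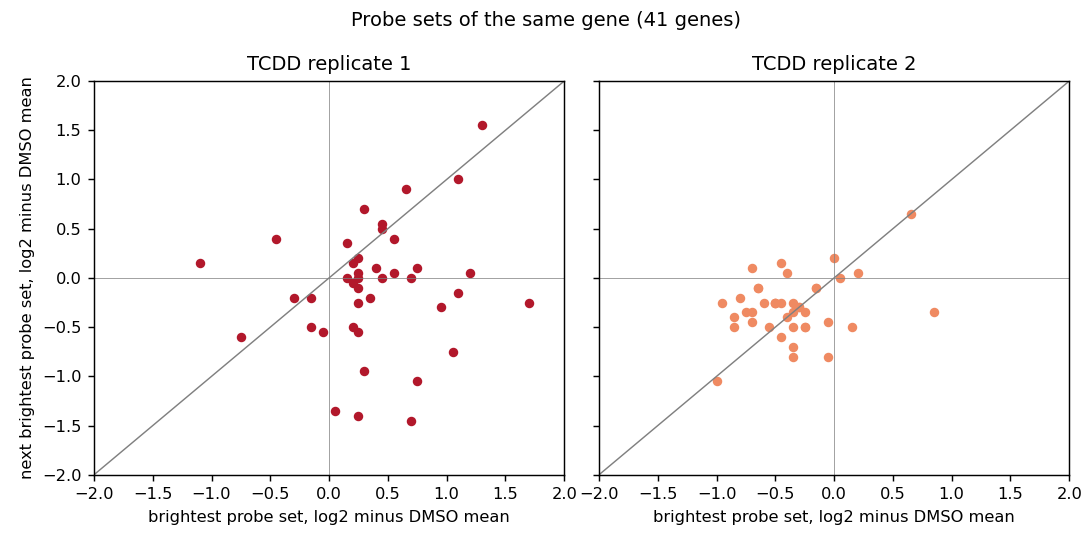
Each point is 1 of 41 genes, with the log2 value minus DMSO mean of its brightest probe set on the x axis and of its next brightest on the y axis, for each TCDD array; the diagonal marks equal values. In replicate 1 many points lie under the diagonal (medians 0.30 and 0.00), and in replicate 2 they scatter around it (-0.40 and -0.30).

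Genes around the chain were read from further lists, whose counts without overlap stand against 19.4% lower and 20.0% higher over all genes. These shares change with the level, so those at the median level of each list are given too. For the partners, with a median level of 8.0, they were 38.2% and 4.54% (all genes at 8 to 9). The partners of the chain outside the prefixes (13 measured of 14) had a median of -0.30 (-0.10 under quantile normalization and -0.12 under cyclic loess), with 5 lower and 0 higher without overlap. Etfdh, which passes electrons from fat oxidation to ubiquinone, lay at 6.7 and 7.3 in DMSO against 6.2 in both TCDD arrays (-0.80, SE 0.252). Etfa, its electron donor, differed by -0.70 and Cyc1, the cytochrome c1 of complex III, by -0.65, but in both the groups overlapped. Of the mitochondrial genome only ND5 was looked up, a core subunit of complex I picked after its value was seen. It lay at 11.8 and 11.3 in DMSO against 10.8 and 11.1 in TCDD. Of all genes at 11 and above, 32.0% were lower without overlap.

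Regulators of the nuclear genes (16 measured of 17) had a median of -0.10, below 0 under the other scalings too, with 6 lower and 3 higher without overlap. Their median level was 6.56, and of all genes from the dim threshold to 7, 13.9% were lower and 26.0% higher without overlap. Tfam, which packs and transcribes mitochondrial DNA, lay at 6.8 and 7.3 in DMSO against 6.0 and 6.2 in TCDD (-0.95, SE 0.227). Yy1, a transcription factor of respiratory genes, lay at 9.3 and 9.7 in DMSO against 8.0 and 8.6 in TCDD (-1.20, SE 0.300). Gabpa, the ETS factor named above, lay at 6.7 and 7.8 in DMSO against 5.9 and 6.2 in TCDD (-1.20, SE 0.467). Sp1 had the largest difference of the list (-1.30, SE 0.738), but its DMSO arrays were far apart. It lay at 7.8 and 6.0 in DMSO against 5.7 and 5.5 in TCDD. On the other side stood Polrmt, the mitochondrial RNA polymerase, and Ppargc1b, a coactivator, at 0.55 each. None of these passed the adjustment by limma (smallest adjusted p of the list 0.379).

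The wider list of assembly factors (28 measured, the 8 above included) had a median of -0.10, also below 0 under the other scalings, with 6 lower and 1 higher. At its median level of 6.41 the shares of all genes were those given for the regulators. Mitochondrial ribosomal proteins (74 genes) had a median of -0.15 (0.00 under quantile normalization), with 19 lower and 4 higher. Their median level was 7.275, and of all genes at 7 to 8, 29.7% were lower and 11.7% higher. For comparison, cytosolic ribosomal proteins (47 genes) had a median of -0.05, which turned to 0.10 under quantile normalization and 0.19 under cyclic loess. Of them 6 were lower and 4 higher, and the medians in the single TCDD arrays were 0.10 and -0.20. Their median level was 11.65, and of all genes at 11 and above, 32.0% were lower and 2.04% higher. Proteasome subunits (38 genes) had a median of -0.425 (-0.23 under quantile normalization and -0.29 under cyclic loess), with 16 lower and 2 higher. Their median level was 8.3, and of all genes at 8 to 9, 38.2% were lower and 4.54% higher. The medians of the single TCDD arrays were -0.525 and -0.375 for the proteasome genes and 0.20 and -0.35 for the oxidative phosphorylation genes; this difference was not tested.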

How the data were processed

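Total RNA of splenic DC was read on 4 arrays, 2 per group. The deposited values are on the log2 scale and were made by RMA, per the submitters' processing notes, a method of background correction, quantile normalization and probe summary; no source used here names the software or which arrays were normalized together, and the 4 arrays as deposited do not share a distribution. Arrays give no counts, so their number limits the precision. After 64 control probe sets were left out, 22626 were tested with limma 3.58.1 in R 4.3.3 (lmFit, eBayes, two-sided, Benjamini-Hochberg over all probe sets, threshold 0.05); each SE is the moderated one. By the platform annotation 20380 probe sets have 1 symbol, 691 several and 1555 none; 8 member-like probe sets with several symbols were left out. The smallest two-sided p of an exact permutation test with these arrays is 0.33, so groups without overlap were counted instead.

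The members and lists were chosen with earlier results of these data known. Named were members with a 2-fold difference, the largest differences without overlap per complex, the brightest gene of each complex, all Sdh subunits, the core subunits of complex I with redox centres or beside them, tissue forms of complex IV, and F1 and c ring subunits. Replicate numbers are shared by the groups, but same-numbered arrays did not deviate together (correlation -0.19). On simulated data with rounded values and 200 of 22626 probe sets changed, limma recovered 0% of differences of 1, 6.5% of 2 and 52% of 3 on the log2 scale; unrounded, 0%, 81% and 92%. Alternatives were other scalings, a dim filter, a replicate block, other priors, other probe sets and leaving out arrays.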

Additional observations from a re-analysis of the deposited data

How the results depend on the processing

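Limma called 0 of the oxidative phosphorylation genes under every alternative run. Quantile normalization gave 8 genes lower and 21 higher without overlap, 0 lower by 2-fold, and medians of 0.16 over all members, -0.10 for complex II, 0.18 for III and 0.12 for V. Cyclic loess gave 10, 22 and 0, and medians of 0.14, -0.15, 0.18 and 0.14. Median centring left 6 higher. In 25 of 87 genes the sign turned under quantile normalization, and in 25 under cyclic loess. Taking the median over all probe sets of each gene gave 30 lower, 6 higher and -0.30 for complex II. No share of all genes was computed beside these 2 counts. Probe sets with the plain suffix _at, an alternative added after the data were seen, gave -0.70 for complex II, 0.10 for III and -0.35 for V (66 genes). By limma, the count at an unadjusted p under 0.05 was 6 without assembly factors and 7 with a replicate block. It was 17 with a crossed replicate block, also added after the data were seen. The replicate block changed no call, and no share of all genes was computed under either block.

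Leaving out 1 array at a time leaves a lone array, assumed to vary like the other group, so groups separate more readily. No share of all genes was computed with an array left out. The counts that follow thus have no background beside them and say nothing of the members in particular. The count at an unadjusted p under 0.05 ran from 7 to 21, that of lower genes from 24 to 57, of higher genes from 10 to 51 and of genes lower by 2-fold from 1 to 4. The median of all members ran from -0.35 to 0.20, of complex I from -0.50 to 0.25, of II from -0.575 to -0.40, of III from -0.10 to 0.25, of IV from -0.225 to 0.225 and of V from -0.25 to 0.20. Without TCDD replicate 1, whose control probe sets stood apart, the median of all members was -0.35, against -0.1 over all probe sets. Without TCDD replicate 2 the median of all members was 0.20, against 0.05 over all probe sets. The members were brighter, with a median level of 8.45 against 5.925 over all probe sets. At a level of 8 to 9 all genes had a median of -0.50 in replicate 2 and the members -0.225. In replicate 1 these were -0.20 and 0.15. At 7 to 8 (-0.30 and -0.375) and among dim genes (0.00 and -0.25) the members were the lower in replicate 2. By the ranges above, the direction for all members and for complexes I, III, IV and V rests on which TCDD array is kept. Only complex II kept its sign. Its median level was 8.14, and all genes at 8 to 9 also stood below 0 in each TCDD array (medians of -0.20 and -0.50). The other settings (dim filter, trended robust prior, no moderation) left the counts within 1.5 times. Rounding to 0.1 and the number of arrays limit what could be called.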
